A study of Homo sapiens with 10 samples.

Results

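MYEOV, SIGLEC15, A4GALT, PHLDA1 and IER3 are 5 protein-coding genes, and they were taken by symbol from a table of read counts for 23228 genes in RD cells. All 5 were among the 14761 genes with enough counts to be tested. They had been selected because they fell with an ERK inhibitor or with siRNAs against NRAS in these same libraries, so their values in those comparisons are given as a description, with no test. RD is a human line from a rhabdomyosarcoma, a soft tissue tumour with features of developing skeletal muscle, and the labels give this 1 line for every library. The muscle factors MYOD1 and MYOG, which define the lineage, were nearly absent (0 to 5 and 0 to 3 counts per library), so the markers bear out the label only in part.

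The inhibitor group received 300 nM SCH772984, which blocks the ERK kinases, and its control group received DMSO, the vehicle. Both were harvested at 24 h, with 2 libraries each. A further 3 groups were transfected at 10 nM with NRAS siRNA 1, NRAS siRNA 2 or a nonspecific siRNA and harvested at 48 h, also with 2 libraries each. The labels do not say that the replicates were separate cultures, so the spread between libraries, and every p-value below, may be technical. NRAS averaged 52.3 ± 0.165 CPM (counts scaled to the size of the library) with siRNA 1 and 49.5 ± 2.14 CPM with siRNA 2, against 246 ± 36.8 CPM with the nonspecific siRNA (SD, n = 2 each). It averaged 257 ± 30.8 CPM with SCH772984 and 276 ± 9.37 CPM with DMSO.

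NRAS is a small GTPase that, when bound to GTP, starts the kinase cascade of RAF, MEK and ERK. Active ERK phosphorylates transcription factors and so induces immediate-early genes, and it also induces phosphatases and Sprouty proteins that damp the cascade. PHLDA1 and IER3 are early-response genes of this kind: PHLDA1 encodes a pleckstrin homology-like domain protein used as a marker of pathway output, and IER3 encodes a short-lived survival regulator that ERK phosphorylates and that is also induced by stress signals. SIGLEC15 encodes a cell-surface lectin that binds sialic acid, is known from osteoclasts and macrophages, and signals through the adaptor encoded by TYROBP. A4GALT encodes the Golgi galactosyltransferase that makes globotriaosylceramide, the glycolipid receptor of Shiga toxin. MYEOV was named for its overexpression in myeloma and lies beside the cyclin D1 gene CCND1, and its molecular function is poorly defined.

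Promoter sequence shows what the members share or lack at their start sites. RefSeq promoters of build GRCh38.p14 were matched for 3 of the 5 genes (PHLDA1, SIGLEC15 and A4GALT, the last with a pair of start sites). The windows ran from 250 bases before to 50 bases after the start, and the 250 bases before it are shown 5′ to 3′ on the gene's strand. Capitals mark matches to motifs of factors that act downstream of ERK, searched on both strands.
PHLDA1 (chr12:76031777-76032026, minus strand): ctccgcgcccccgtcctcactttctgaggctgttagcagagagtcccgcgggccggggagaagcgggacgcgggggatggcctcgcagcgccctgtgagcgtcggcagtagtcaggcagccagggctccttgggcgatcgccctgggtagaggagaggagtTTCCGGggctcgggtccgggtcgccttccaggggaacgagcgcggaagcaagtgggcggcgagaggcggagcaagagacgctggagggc
SIGLEC15 (chr18:45825425-45825674, plus strand): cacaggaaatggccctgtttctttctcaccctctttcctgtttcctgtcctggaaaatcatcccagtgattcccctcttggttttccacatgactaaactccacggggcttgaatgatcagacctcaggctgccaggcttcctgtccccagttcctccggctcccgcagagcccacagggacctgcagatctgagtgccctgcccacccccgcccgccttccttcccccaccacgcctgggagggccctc
A4GALT (chr22:42720871-42721120, minus strand): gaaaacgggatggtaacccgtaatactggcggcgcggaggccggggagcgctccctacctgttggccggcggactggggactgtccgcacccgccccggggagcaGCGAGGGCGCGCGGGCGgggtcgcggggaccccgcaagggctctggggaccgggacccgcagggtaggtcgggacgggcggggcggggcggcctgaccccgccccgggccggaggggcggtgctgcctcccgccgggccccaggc
The PHLDA1 capitals are 1 match to the ETS motif CCGGAA on the opposite strand, 89 to 84 bases before the start; 17.2% of 35116 promoters of the same length hold at least 1 such match. The A4GALT capitals are 2 matches to the EGR motif GCGNGGGCG that overlap by 1 base, the first from 145 to 137 bases before the start; 9.43% of promoters hold this motif. No match to either motif, to the AP-1 motif TGANTCA (7.71% of promoters), to the cyclic AMP response element TGACGTCA (1.85%) or to the CArG box of serum response factor (1.29%) was found in the SIGLEC15 window, nor in that of the second A4GALT start. G and C made up 81.0% of the first A4GALT window, 69.3% of the PHLDA1 window, 61% of the SIGLEC15 window and 43.3% of the second A4GALT window, beside a median of 58.7% over all promoters. A match of letters is no evidence of binding, and its absence says only that these letters are not in the window.

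MYEOV, the gene with the widest range, was close to absent with the inhibitor. It had 2 and 3 counts in the SCH772984 libraries, against 145 and 162 counts in the DMSO libraries. In CPM these are 0.0761 and 0.102 with SCH772984, against 6.38 and 6.15 with DMSO. A level of 3 counts is taken here as the limit of what a library can show, so what remained of MYEOV lies at that limit. Scaled to library size, the summed counts with SCH772984 were 0.0144 times those with DMSO, with an exact 95% interval of 0.00463 to 0.0339 that covers counting error only. The fitted log2 fold change was -6.05 (SE 0.48), the second lowest of all tested genes. From the lowest of 14761 values, SIGLEC15 ranked 37, PHLDA1 166, A4GALT 533 and IER3 3526 with SCH772984.

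NRAS knockdown left more MYEOV RNA. It stood at 1.02 and 1.80 CPM with siRNA 1 and at 1.11 and 1.96 CPM with siRNA 2, against 4.97 and 3.79 CPM with the nonspecific siRNA. All 4 knockdown libraries lay below both control libraries, and the ranges of the siRNAs overlapped. The mean level was 32.2% of control with siRNA 1 and 35.0% with siRNA 2, with log2 fold changes of -1.63 (SE 0.32) and -1.52 (SE 0.31). The mean siRNA log2 fold change exceeded the SCH772984 log2 fold change by 4.48 (SE 0.60). These comparisons differ in agent and in harvest time, 48 h against 24 h, and what each of these adds to the gap cannot be told apart.

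SIGLEC15, the lectin, showed the same order of treatments with a narrower gap. It stood at 0.875 and 0.819 CPM with SCH772984, from 23 and 24 counts, against 8.10 and 8.20 CPM with DMSO, from 184 and 216 counts. The SCH772984 level was 10.4% of the DMSO level, and the log2 fold change was -3.26 (SE 0.32). Knockdown libraries held 2.15 and 2.16 CPM with siRNA 1 and 1.68 and 3.56 CPM with siRNA 2, against 8.86 and 7.47 CPM with the nonspecific siRNA. No treated library came near its controls, while the siRNA 2 replicates lay far apart from each other. Mean levels were 26.4% of control with siRNA 1 and 32.1% with siRNA 2, and the log2 fold change over both was -1.78 (SE 0.23). For siRNA 2 alone it was -1.65 (SE 0.28), while it was -2.28 without siRNA 2 replicate 2 and -1.20 without siRNA 2 replicate 1.

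A4GALT, the glycosyltransferase, was about equally low under both kinds of treatment. Its level was 11.8 and 9.52 CPM with SCH772984, against 19.3 and 21.8 CPM with DMSO. It was 11.4 and 12.9 CPM with siRNA 1 and 11.3 and 17.1 CPM with siRNA 2, against 23.5 and 26.0 CPM with the nonspecific siRNA. Treated and control libraries did not overlap in either comparison. The inhibitor level was 51.9% of DMSO (log2 fold change -0.95, SE 0.20), and the knockdown levels were 49.2% of control with siRNA 1 and 57.4% with siRNA 2 (log2 fold change of the mean -0.91, SE 0.16). The mean siRNA and SCH772984 log2 fold changes differed by 0.03 (SE 0.26).

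PHLDA1, the marker of pathway output, was lower under both kinds of treatment, more so with the inhibitor. It had 249.8 and 204.5 CPM with SCH772984, against 902 and 664 CPM with DMSO. Mean levels were 227 ± 32.0 CPM with SCH772984 and 783 ± 168 CPM with DMSO (SD, n = 2 each), so that 29% of the DMSO level remained, with a log2 fold change of -1.79 (SE 0.16). With knockdown it had 678 and 768 CPM under siRNA 1 and 624 and 744 CPM under siRNA 2, against 1081 and 1193 CPM under the nonspecific siRNA. These 4 libraries were below both of their own controls but overlapped the DMSO libraries. Mean levels were 63.6% of control with siRNA 1 and 60.1% with siRNA 2. The mean siRNA log2 fold change was -0.69 (SE 0.13), and it exceeded the SCH772984 log2 fold change by 1.09 (SE 0.21).

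IER3 was also lower under both kinds of treatment, but with the larger change under the siRNAs. It stood at 39.6 and 43.1 CPM with SCH772984, against 50.7 and 49.6 CPM with DMSO, so 82.5% of the DMSO level remained. The groups did not overlap, and the log2 fold change of -0.28 was the smallest of the 5, so calling this gene ERK-dependent rests on a small difference. Its standard error was 0.31 in the fit to all libraries, whose spread includes the wide siRNA replicates, and 0.12 when only the SCH772984 and DMSO libraries were fitted. Knockdown libraries held 31.1 and 50.1 CPM with siRNA 1 and 28.0 and 60.3 CPM with siRNA 2, against 79.3 and 101 CPM with the nonspecific siRNA. Mean levels were 45.1% of control with siRNA 1 and 49.1% with siRNA 2, and the mean log2 fold change was -1.09 (SE 0.26). Replicates differed widely: the siRNA 2 log2 fold change of -1.03 (SE 0.31) became -1.68 without siRNA 2 replicate 2 and -0.58 without siRNA 2 replicate 1. The mean siRNA log2 fold change lay below the SCH772984 log2 fold change, with a difference of -0.81 (SE 0.41).

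**Figure D1:**
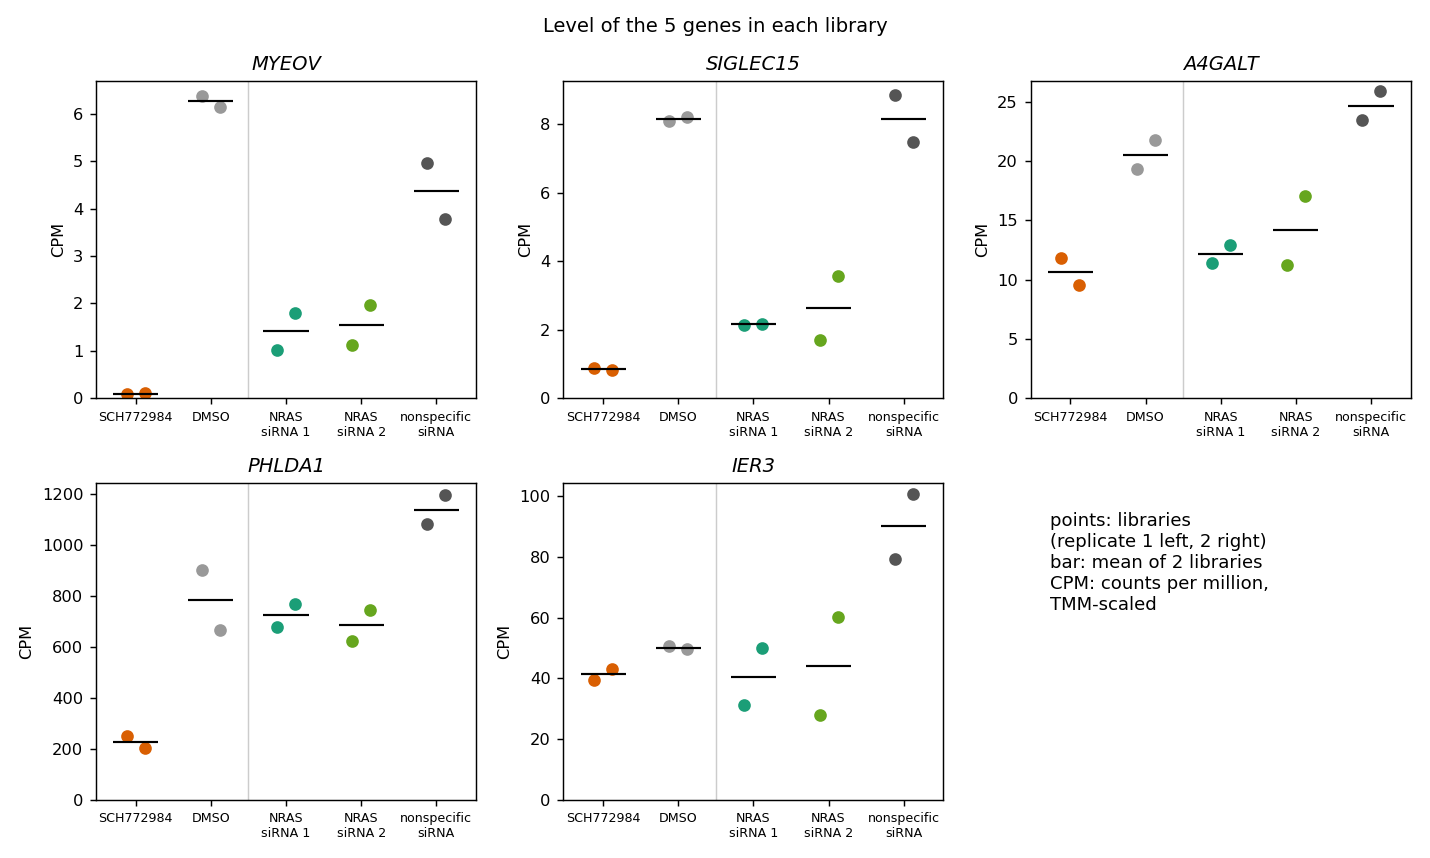
Level of each of the 5 genes in every library, in CPM on a linear axis from 0, with 1 panel per gene. Points are libraries (n = 2 per group) and bars are group means; MYEOV with SCH772984 sits at 0.0761 and 0.102 CPM, far below its other groups, while the IER3 libraries of both NRAS siRNAs spread across the range of its SCH772984 and DMSO libraries.

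All 5 genes were lower in both SCH772984 libraries than in both DMSO libraries, a pattern that 33.9% of all tested genes showed. All 5 were also lower in all 4 knockdown libraries than in both nonspecific siRNA libraries, which 19.3% of tested genes showed. The genes were chosen on these contrasts, so nothing is read from either count. In bulk RNA, fewer cells of a kind and less RNA per cell cannot be told apart. With both siRNAs each of the 5 genes was lower in replicate 1 than in replicate 2, against 2 of 5 genes with SCH772984, 2 of 5 with DMSO and 3 of 5 with the nonspecific siRNA. This replicate difference was looked at only through a fit with a block for the replicate number, given below. For IER3 with SCH772984 that fit gave -0.29 (SE 0.22), in place of -0.28 (SE 0.31).

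**Figure D2:**
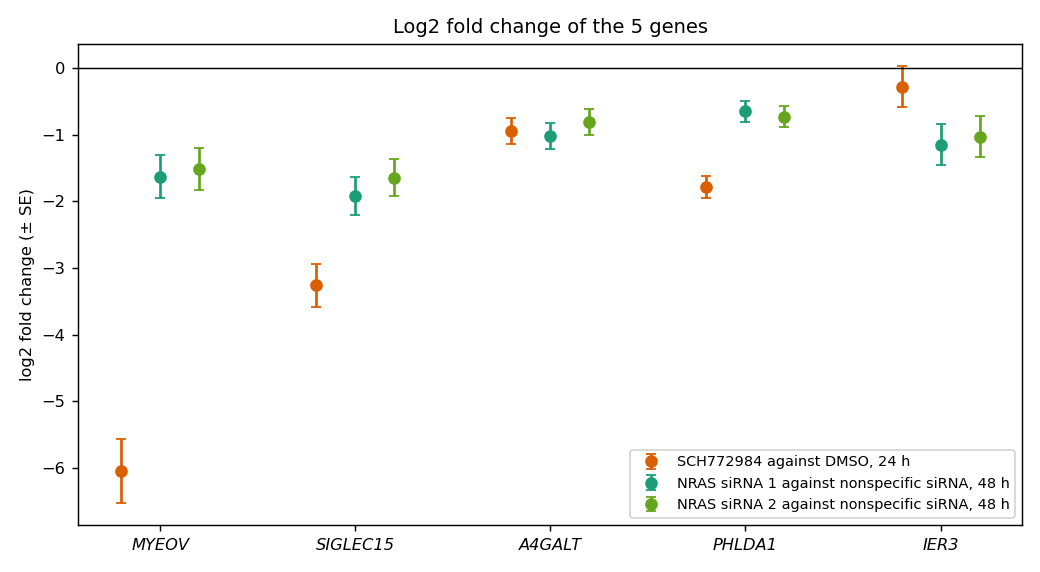
Log2 fold change (± SE) of each gene with SCH772984 against DMSO and with each NRAS siRNA against the nonspecific siRNA. The SCH772984 change is the lowest for MYEOV (-6.05), SIGLEC15 (-3.26) and PHLDA1 (-1.79), close to the siRNA changes for A4GALT and the smallest for IER3 (-0.28).

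Within each gene the groups could be ordered by mean level. For MYEOV the order from low to high was SCH772984, siRNA 1, siRNA 2, nonspecific siRNA and DMSO, and neighbouring groups overlapped only between the siRNAs. For SIGLEC15 it was SCH772984, siRNA 1, siRNA 2, DMSO and nonspecific siRNA, with overlap between the siRNAs and between both controls. The A4GALT order was SCH772984, siRNA 1, siRNA 2, DMSO and nonspecific siRNA, and its 3 treated groups overlapped. PHLDA1 ran from SCH772984 through siRNA 2, siRNA 1 and DMSO to the nonspecific siRNA, and the 3 middle groups overlapped. In IER3 the nonspecific siRNA alone stood above its neighbour, and siRNA 1, SCH772984, siRNA 2 and DMSO overlapped in turn.

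Compared per kilobase of annotated exon, the level in DMSO was 97.1 CPM per kb for PHLDA1, 37.0 for IER3, 6.03 for A4GALT, 2.26 for SIGLEC15 and 1.67 for MYEOV. In SCH772984 libraries the level per kilobase was 28.2 CPM for PHLDA1 and 30.5 CPM for IER3, so these genes were close under the inhibitor while PHLDA1 was above IER3 with DMSO. MYEOV had 0.0237 CPM per kb and SIGLEC15 0.235 CPM per kb with SCH772984.

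Neither siRNA 1 against siRNA 2 nor the nonspecific siRNA against DMSO had served to choose the genes, although both share libraries with the comparisons that did. In the first, none of the 5 passed the threshold of adjusted p = 0.05 in edgeR (quasi-likelihood test, Benjamini-Hochberg adjustment), and none had an unadjusted p under 0.05 (0 of 5 in DESeq2 as well); 0.427% of all tested genes were called. Log2 differences, siRNA 1 minus siRNA 2, ran from -0.27 (SIGLEC15, SE 0.30) to 0.08 (PHLDA1, SE 0.16), with edgeR adjusted p between 0.953 and 0.978. The 95% interval was widest for MYEOV, -0.87 to 0.65, and narrowest for PHLDA1, -0.27 to 0.43. These intervals leave room for differences of the size seen between replicates and do not show that the siRNAs act alike.

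In the nonspecific siRNA libraries PHLDA1 and IER3 had higher means than in the DMSO libraries, though neither passed the threshold in the edgeR test. PHLDA1 stood at 145% of its DMSO level (log2 fold change 0.54, SE 0.16, 95% interval 0.19 to 0.88, edgeR adjusted p = 0.186). IER3 stood at 180% (0.85, SE 0.31, interval 0.16 to 1.53, edgeR adjusted p = 0.312). MYEOV at -0.52 (SE 0.28), A4GALT at 0.27 (SE 0.19) and SIGLEC15 at 0.0014 (SE 0.26) had edgeR adjusted p of 0.536, 0.665 and 0.999. Thus 0 of 5 genes were called, 2 had an unadjusted p under 0.05, and 0.379% of all tested genes were called. DESeq2 called PHLDA1 (adjusted p = 0.0481), and edgeR without the filter on low counts called PHLDA1 (adjusted p = 0.0175) and IER3 (adjusted p = 0.0417). Choosing genes for falls against the nonspecific siRNA favours high values in those libraries, and choosing for falls against DMSO favours the reverse. These p-values are therefore not independent of the choice of genes. Agent, transfection and time (48 h with the nonspecific siRNA, 24 h with DMSO) cannot be told apart in this comparison. For IER3 the nonspecific siRNA level, 90.1 ± 15.2 CPM, is the base of the knockdown change, while siRNA 1 at 40.6 ± 13.4 CPM and siRNA 2 at 44.2 ± 22.8 CPM overlapped DMSO at 50.1 ± 0.745 CPM (SD, n = 2 each).

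A list of 30 other known targets of ERK signalling was set beside the 5 genes. It was drawn up with earlier results of these data known, so its counts are no independent readout of the pathway. With SCH772984, 24 of the 30 fell and 1 rose at edgeR adjusted p under 0.05, beside 14.8% of all tested genes lower and 13.2% higher. The median log2 fold change of the list was -1.93, against 0.00070 over all tested genes. With upper-quartile scaling the split over all genes became 2210 higher and 1725 lower, in place of 1948 higher and 2180 lower, and 23 list genes fell. Knockdown of NRAS lowered 16 of the 30 and raised none, beside 4.99% of all tested genes lower and 2.97% higher. The list median for the mean of both siRNAs was -0.96, against -0.0054 over all tested genes, and all 30 values were negative.

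The knockdown count moved with single libraries. It was 6 without nonspecific siRNA replicate 1, 9 without nonspecific siRNA replicate 2, 9 without siRNA 2 replicate 1 and 8 when the inhibitor and DMSO libraries were left out of the fit. It was 21 without siRNA 1 replicate 2, 22 without siRNA 2 replicate 2, 19 in DESeq2 and 24 with no filter on low counts.

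The greatest inhibitor falls on the list were those of the immediate-early factor EGR1 at -6.29 (SE 0.39), the ETS factor ETV4 at -5.47 (SE 0.24) and the feedback inhibitor SPRY4 at -4.92 (SE 0.19). MYEOV at -6.05 stood between the first and second of these. SPRY2, another Sprouty feedback inhibitor, averaged 16.0 ± 2.43 CPM with SCH772984 and 287 ± 46.2 CPM with DMSO (SD, n = 2 each; log2 fold change -4.16, SE 0.21, edgeR adjusted p = 2.21e-06). With knockdown it averaged 176 ± 19.0 CPM (siRNA 1) and 176 ± 5.28 CPM (siRNA 2), against 344 ± 98.0 CPM with the nonspecific siRNA (mean log2 fold change -0.97, SE 0.16, edgeR adjusted p = 0.00869).

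The 8 greatest called knockdown falls on the list were those of the immediate-early factors EGR1 (-1.76, SE 0.22) and EGR3 (-1.29, SE 0.33), the phosphatases DUSP4 (-1.27, SE 0.18), DUSP6 (-1.24, SE 0.14) and DUSP5 (-1.18, SE 0.25), SPRY4 (-1.19, SE 0.13), the adaptor SH2B3 (-1.10, SE 0.26) and the Sprouty-related SPRED3 (-1.08, SE 0.22). SH2B3 averaged 38.4 ± 2.07 CPM with SCH772984 and 285 ± 58.9 CPM with DMSO. The ETS factor ETV5 fell with SCH772984, at -3.83 (SE 0.17), and stood at -0.24 (SE 0.13, edgeR adjusted p = 0.261) with knockdown. FOSL1 and MAFF, both bZIP factors, fell with SCH772984 at -3.42 (SE 0.69) and -3.22 (SE 0.43), and with knockdown their values of -1.23 (SE 0.50) and -1.01 (SE 0.31) did not pass. HBEGF, a ligand of the EGF receptor, was the 1 list gene that rose with SCH772984, by 1.00 on the log2 scale (SE 0.27, edgeR adjusted p = 0.0221).

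**Figure D3:**
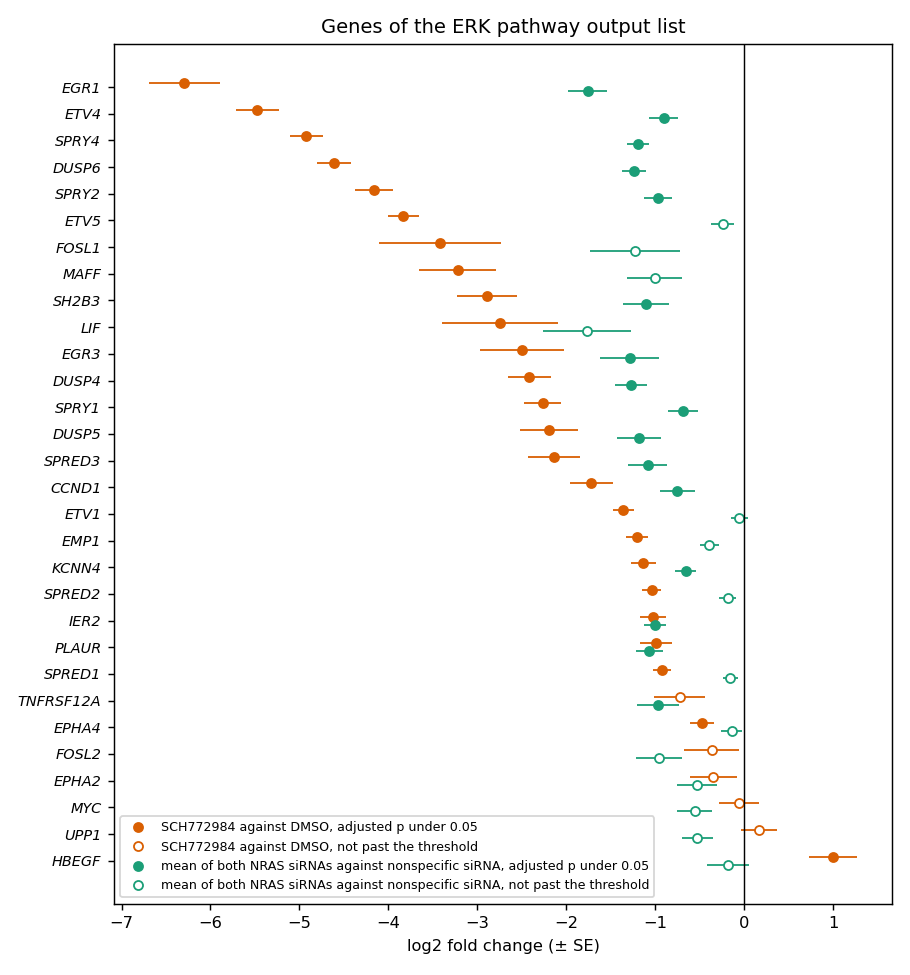
Log2 fold change (± SE) of the 30 genes of the ERK pathway output list, with SCH772984 against DMSO above the mean of both NRAS siRNAs against the nonspecific siRNA in each row. Filled points passed edgeR adjusted p under 0.05. With SCH772984, 24 genes fell and HBEGF rose, and 16 genes fell with knockdown. The list was drawn up with earlier results of these data known.

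**Figure D4:**
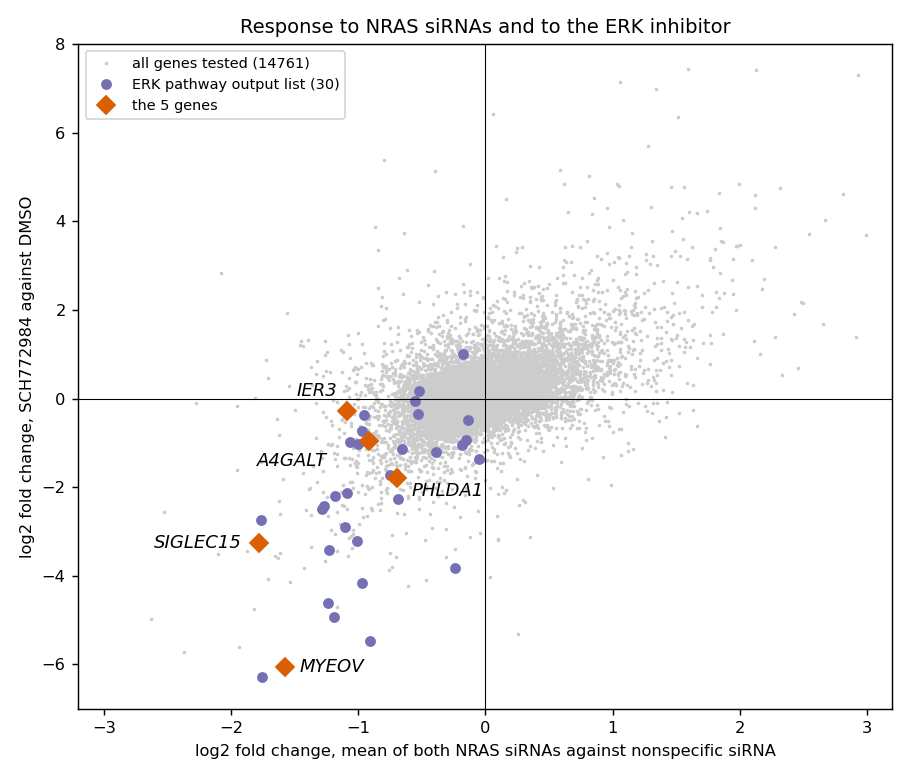
Log2 fold change of every tested gene with SCH772984 against DMSO (vertical) and with the mean of both NRAS siRNAs against the nonspecific siRNA (horizontal), apart from 5 genes outside the axes. MYEOV and SIGLEC15 lie at the lower left among genes of the ERK list, and IER3 lies left of 0 near the horizontal line.

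Genes that share a family or only a name with the 5 genes did not all behave like them. Among 6 genes grouped by the names PHLDA and IER, 1 fell and none rose with SCH772984, and 2 fell and none rose with knockdown. Over all tested genes 14.8% were lower and 13.2% higher with SCH772984, and 4.99% were lower and 2.97% higher with knockdown. The IER genes were taken by name, so their values are not those of relatives of IER3. PHLDA2, a paralogue of PHLDA1, averaged 11.1 ± 1.19 CPM with SCH772984 and 19.6 ± 3.98 CPM with DMSO (log2 fold change -0.82, SE 0.29, edgeR adjusted p = 0.0585). With knockdown it fell to 5.32 ± 1.65 CPM (siRNA 1) and 7.82 ± 3.39 CPM (siRNA 2), against 19.8 ± 2.54 CPM with the nonspecific siRNA (mean log2 fold change -1.62, SE 0.24, edgeR adjusted p = 0.00670). PHLDA3, a p53-induced repressor of AKT, was at 0.42 (SE 0.16, edgeR adjusted p = 0.0692) with SCH772984 and -0.20 (SE 0.14, edgeR adjusted p = 0.371) with knockdown.

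IER2, an immediate-early gene that shares its name but not its sequence family with IER3, is also on the list of ERK targets. It fell in both comparisons, at -1.02 (SE 0.15) with SCH772984 and -1.003 (SE 0.12) with knockdown. IER5 stood at -0.35 (SE 0.13) with SCH772984 and -0.35 (SE 0.11) with knockdown, and IER5L at 0.60 (SE 0.21) with SCH772984 and -0.55 (SE 0.18) with knockdown. Neither passed the threshold, nor did IER3IP1, at -0.12 (SE 0.13) and -0.11 (SE 0.11). The 6-gene median was -0.24 with SCH772984 and -0.45 with knockdown.

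SIGLEC15 stood apart from the other sialic acid receptors in level. Of 17 genes of the Siglec family and its adaptors in the table, 2 had enough counts to be tested. CD22, known from B cells, had 4 to 17 counts per library, and CD33, known from myeloid cells, had 5 to 20 counts per library. Neither was called in either comparison. TYROBP, whose product couples SIGLEC15 to intracellular signalling, had 0 counts in 8 libraries and 1 count in the others, and SYK, the kinase that binds this adaptor, had 0 to 5 counts per library.

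Markers of myeloid cells and osteoclasts, in which SIGLEC15 is known, were measured beside it. Their summed level over 14 genes was 17.9 to 18.1 CPM with SCH772984 and 26.1 to 28.1 CPM with DMSO. For siRNA 1 it was 23.3 to 26.6 CPM, and for siRNA 2 it was 24.7 to 26.9 CPM, against 32.5 to 33.3 CPM for the nonspecific siRNA. The sum was thus lower in treated than in control libraries in both comparisons, but it was higher with the nonspecific siRNA than with DMSO, where the mean SIGLEC15 levels were 8.16 and 8.15 CPM. Only 4 of the 14 genes reached 1 CPM with DMSO, so the sum rests on few genes. Among them the protease gene CTSK, at 8.93 CPM with DMSO, stood at -0.04 (SE 0.20) with SCH772984 and -0.16 (SE 0.17) with knockdown. It did not pass in either comparison. The part of the sum in the SIGLEC15 values was not tested. Of the 5 tested, 2 fell with SCH772984, the acid phosphatase ACP5 at -1.45 (SE 0.23, edgeR adjusted p = 0.00169; 3.71 CPM with SCH772984 and 10.1 CPM with DMSO) and the lysosomal protein CD68 at -0.94 (SE 0.27, edgeR adjusted p = 0.0261). With knockdown 1 fell, the lipopolysaccharide receptor CD14, at -1.004 (SE 0.26, edgeR adjusted p = 0.0450). Over all tested genes 14.8% were lower with SCH772984 and 4.99% were lower with knockdown. The defining markers were near 0: PTPRC had 1 to 5 counts per library and SPI1 had 0 to 4, and none of the 14 was at 0 in every library.

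A4GALT acts within a chain of glycolipid enzymes, and genes of that chain and related ones were listed beside it. Of 25 tested genes of globo-series and related glycosphingolipid metabolism, 8 fell and 1 rose with SCH772984, and 16 did not pass. Over all tested genes 14.8% were lower and 13.2% higher. With knockdown 2 fell, 1 rose and 22 did not pass, beside 4.99% of all tested genes lower and 2.97% higher. The list median was -0.11 with SCH772984 and -0.09 with knockdown. UGCG, which makes the glucosylceramide at the start of the chain, stood at 0.20 (SE 0.15) and -0.17 (SE 0.13) in the SCH772984 and knockdown comparisons. B4GALT5, which adds the next galactose, stood at -0.09 (SE 0.08) and -0.09 (SE 0.07), and B3GALNT1, which extends the product of A4GALT, at 0.36 (SE 0.14) and 0.12 (SE 0.12). None of these passed in either comparison.

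LAPTM4A and TM9SF2, Golgi and endosomal proteins needed for globotriaosylceramide synthesis in cultured cells, stood at 0.14 (SE 0.09) and -0.07 (SE 0.07) with SCH772984, and at 0.10 (SE 0.08) and 0.05 (SE 0.06) with knockdown. GLA, the lysosomal enzyme that degrades that lipid, fell with SCH772984, at -0.64 (SE 0.13, edgeR adjusted p = 0.00602), and stood at -0.23 (SE 0.11) with knockdown, where it did not pass. The sialyltransferase ST3GAL1 fell in both comparisons, at -1.01 (SE 0.17) with SCH772984 and -0.58 (SE 0.14) with knockdown.

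Other falls with SCH772984 were those of B3GALT5 (-2.96, SE 0.66), ST6GALNAC5 (-1.87, SE 0.24) and UGT8 (-0.69, SE 0.16). GBGT1, of the Forssman synthase family, rose by 0.97 (SE 0.15). With knockdown the glycolipid transfer protein GLTP fell by 0.74 (SE 0.09).

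MYEOV was set beside 20 genes of its region, 11q13, of which 16 were tested. With SCH772984, 6 fell and 1 rose (median -0.32), beside 14.8% of all tested genes lower and 13.2% higher. With knockdown 4 fell and none rose (median -0.15), beside 4.99% of all tested genes lower and 2.97% higher. CCND1, the cyclin D1 gene next to MYEOV, averaged 219 ± 15.8 CPM with SCH772984 and 721 ± 49.2 CPM with DMSO (log2 fold change -1.72, SE 0.24, edgeR adjusted p = 0.000831), and its knockdown change was -0.75 (SE 0.20, edgeR adjusted p = 0.0482). GAL, the precursor gene of the neuropeptide galanin, fell at -1.64 (SE 0.34) with SCH772984 and -1.27 (SE 0.28) with knockdown. The other SCH772984 falls were those of FGF19 at -1.28 (SE 0.39), IGHMBP2 at -0.49 (SE 0.13), MRPL21 at -0.48 (SE 0.11) and FADD at -0.40 (SE 0.10). With knockdown LRP5 fell at -0.59 (SE 0.15) and IGHMBP2 at -0.42 (SE 0.11). FGF19 had only 10 to 61 counts per library. With knockdown it stood at 1.06 (SE 0.30, edgeR adjusted p = 0.0544), in the opposite direction, and did not pass. FGF4 had no count in any library.

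Genes whose profile over the 5 groups lay nearest to each member were found among 13578 tested genes, by the Euclidean distance between 5 centred group means of log2 CPM. The members were chosen for falls between these same groups, so other falling genes lie near them by that choice. Nearness shows only a like pattern of levels. Nearest to MYEOV were the cytokine gene IL1B (distance 0.572) and the ERK feedback genes SPRY4 (0.767) and DUSP6 (0.942). IL1B varied widely between replicates, at 2.80 ± 1.78 CPM with DMSO and 3.89 ± 3.92 CPM with the nonspecific siRNA (SD, n = 2 each). Nearest to SIGLEC15 was VGF, a neuropeptide precursor gene (0.287), at 2.55 ± 0.426 CPM with SCH772984 and 29.7 ± 2.59 CPM with DMSO. Its knockdown levels were 7.69 ± 0.232 CPM (siRNA 1) and 9.68 ± 3.32 CPM (siRNA 2), against 27.1 ± 3.94 CPM with the nonspecific siRNA. The next were the WNT ligand gene WNT7B (0.543) and TM4SF18 (0.619).

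A4GALT lay nearest to C1orf133 (0.110), ABTB1 (0.165) and TMEM22 (0.171). For PHLDA1 the nearest were RHEBL1 (0.221), the carbonic anhydrase gene CA12 (0.251) and the oncostatin M receptor gene OSMR (0.271). OSMR averaged 43.6 ± 1.78 CPM with SCH772984 and 133 ± 14.4 CPM with DMSO, and 107 ± 12.9 CPM (siRNA 1) and 118 ± 9.56 CPM (siRNA 2), against 193 ± 3.92 CPM with the nonspecific siRNA (SD, n = 2 each). IER3 lay nearest to SH2D5 (0.268), RGS20, a regulator of G-protein signalling (0.281), and the p38 kinase gene MAPK13 (0.287). Among the members themselves, A4GALT and IER3 had the nearest profiles (0.525) and MYEOV and IER3 the farthest (4.17).

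Libraries held 23224063 to 30768970 counts over genes, and 3 counts were worth 0.0975 to 0.129 CPM before TMM scaling. Across genes, which are not independent, log2 CPM of the replicate libraries correlated at a Pearson's r between 0.988 and 0.992. Of 16 muscle lineage markers, 6 reached 1 CPM with DMSO, among them NCAM1 at 95.8 ± 9.73 CPM and DES at 22.1 ± 3.41 CPM, while MYF5 had no count in any library. With SCH772984, 4 of 11 tested muscle markers rose and 1 fell, beside 13.2% of all tested genes higher and 14.8% lower. The 4 that rose were low with DMSO: CDH15 at 0.448 CPM, TNNT2 at 0.136 CPM, ACTC1 at 0.104 CPM and MYL4 at 0.0410 CPM. ACTC1, MYL4, TNNT1 and TNNT2 were not among the muscle markers first planned, so every rise but that of CDH15 came from added genes. CHRNA1, with 1 to 20 counts per library, was the marker that fell, at -3.45 (SE 0.65). With knockdown 1 muscle marker fell, again CHRNA1, at -1.88 (SE 0.42), beside 4.99% of all tested genes lower. The 12 epithelial and endothelial markers summed to 401 to 489 CPM with DMSO, above the sum over the 16 muscle markers. Of these 12 genes, 4 reached 1 CPM with DMSO, among them KRT18 at 270 ± 81.2 CPM and TEK at 153 ± 19.1 CPM. The markers thus leave the identity of the cells less clear than the label does, and it was not tested further. Of 6 tested epithelial and endothelial markers, 1 rose and 2 fell with SCH772984, and none passed with knockdown. Their part in the members' values was not tested.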

How the data were processed

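The authors prepared stranded mRNA libraries from total RNA of RD cells, per the labels' protocols, in 5 groups of 2. What they deposited are raw read counts per gene. Builds hg19 and GRCh37 and the tools HTSeq, SAMtools, TopHat2 and bcl2fastq are listed in the submitters' processing notes. The sources used here do not give tool versions, the annotation or the strand setting of counting, so reads from PHLDA1 or IER3 and their antisense RNAs, or from SIGLEC15 and the overlapping EPG5, cannot be told apart. In each library 5 category lines that name no gene (38.3 to 39.4% of reads, with 27.0 to 28.9% not uniquely aligned) were left out.

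Counts were fitted with edgeR 4.0.16 (quasi-likelihood test, R 4.3.3; limma 3.58.1) over all 10 libraries, with TMM scaling (factors 0.968 to 1.03), filterByExpr at a minimum count of 10, 5 residual degrees of freedom and Benjamini-Hochberg adjustment over 14761 genes, at a threshold of 0.05. CPM are TMM-scaled. Profiles used a pseudocount of 0.5 counts and genes of at least 1 CPM in the highest group. Exon lengths came from GENCODE, promoters and neighbours from RefSeq, both of a later build. Alternatives were DESeq2 1.42.0, upper-quartile scaling, no filter, a replicate block, only the groups compared, and leaving out each library.

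The 5 genes, the gene lists, the tests and the rule for named genes were chosen with earlier results of these data known. The rule took the 5 genes, their relatives or genes of like name, and the 3 nearest profiles per gene. From each list it took up to 6 genes past the threshold (8 for ERK output) by size of change. These had at least 1 CPM in the higher group. Genes named for low counts, HBEGF, CTSK, CHRNA1 and KRT18 were named after their values were seen. Some genes that the rule reaches are not reported here.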

Additional observations from a re-analysis of the deposited data

How the results depend on the processing

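In the comparisons with DMSO and with the nonspecific siRNA, the 300 log2 fold changes of the 5 genes under 15 alternatives all kept their sign, in comparisons on which the genes had been chosen. Of 150 such values for the nonspecific siRNA against DMSO and siRNA 1 against siRNA 2, 3 passed the threshold: for the nonspecific siRNA against DMSO, 1 gene was called by DESeq2 and 2 without the filter on low counts, in place of 0. The near-zero SIGLEC15 difference there changed sign to -0.0073 with DESeq2, to -0.0053 with upper-quartile scaling and ran from -0.13 to 0.12 when single libraries were left out. Leaving out single libraries moved siRNA 1 against siRNA 2 from -0.57 to 0.34 for MYEOV, -0.72 to 0.36 for SIGLEC15, -0.49 to 0.11 for A4GALT, -0.041 to 0.21 for PHLDA1 and -0.57 to 0.53 for IER3, without a call; the cause was not tested. Of the 30 ERK output genes, the 16 lowered by knockdown became 8 with only the groups compared 6 to 22 without single libraries and 24 without the filter; the 24 lowered by SCH772984 ran from 21 to 25. Over all genes, leaving out single libraries gave 1875 to 4392 calls for SCH772984 (4128 with all), 131 to 1491 for the mean of both siRNAs (1174), 6 to 31 for the nonspecific siRNA against DMSO (56) and 6 to 54 for siRNA 1 against siRNA 2 (63); with only the groups compared the knockdown count was 425. Depth limits MYEOV with SCH772984 and most Siglec genes.

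Replicate numbers were shared by all groups, but the deviations of same-numbered libraries correlated at 0.0530 to 0.533 over 10 pairs of groups. Of these, 9 were above 0.1, which hints at a shared replicate effect, but 1 was not and no label says what a number marks, so the fit without the block was kept. With the replicate block the calls over all genes were 5648 for SCH772984, 2846 for the mean of both siRNAs, 446 for the nonspecific siRNA against DMSO and 120 for siRNA 1 against siRNA 2. It called 25 ERK output genes lower with SCH772984 and 24 with knockdown, and 0 of the 5 genes in the other comparisons.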

Other observations

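Genes next to the 5 were looked up in RefSeq and named after their values were seen. SLC14A1, a urea transporter gene beside SIGLEC15, fell to 1.02 CPM with SCH772984, against 7.30 CPM with DMSO (log2 fold change -2.84, SE 0.37, edgeR adjusted p = 0.000518). Its mean level was 3.71 CPM with siRNA 1 and 4.49 CPM with siRNA 2, against 8.16 CPM with the nonspecific siRNA (-0.99, SE 0.26, edgeR adjusted p = 0.0471). PSTPIP2, on the other side of SIGLEC15, fell with SCH772984 (-0.54, SE 0.13, edgeR adjusted p = 0.0142) and did not pass with knockdown (-0.18, SE 0.11, edgeR adjusted p = 0.343). EPG5, which overlaps SIGLEC15, stood at 0.10 (SE 0.10) with SCH772984 and 0.05 (SE 0.09) with knockdown, and neither passed.

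DDR1, a collagen receptor gene beside IER3, averaged 67.0 CPM with SCH772984 and 36.1 CPM with DMSO (0.89, SE 0.11, edgeR adjusted p = 0.000415), and it stood at 0.01 (SE 0.10) with knockdown. FLOT1, also beside IER3, did not pass in either comparison, nor did CYB5R3 and ARFGAP3 beside A4GALT, or KRR1 and NAP1L1 beside PHLDA1.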
